A study of Mus musculus with 12 samples.

Results

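The comparison described here sets livers of Ifng-null mice, which cannot make the cytokine interferon-gamma (IFN-γ), beside livers of control mice after an injection of phosphate-buffered saline (PBS) alone. Its members are 4 of the 12 arrays of the series, chosen by their labels: 2 arrays of Interferon-gamma-/- mice and 2 arrays of albumin-cre(-) Socs3(w/fl) mice, the controls, which carry a floxed Socs3 allele and no Cre. All mice were injected intraperitoneally and killed after 4 h. The other 8 arrays, in 4 groups of 2, are Interferon-gamma-/- mice given IFN-γ, control mice given interleukin-6 (IL-6), and albumin-cre(+) Socs3(-/fl) mice, in which Cre is driven by the albumin promoter of hepatocytes, given PBS or IL-6. The labels name no strain, colony, sex or age and do not say that the 2 arrays of a group come from separate mice. The Ifng genotype, the floxed Socs3 allele of the controls and any difference in strain or colony cannot be told apart, and every p-value reflects array-to-array spread that may be technical.

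IFN-γ is made mainly by T cells and natural killer cells. It binds a receptor present on most cells, including hepatocytes, and acts on gamma-activated sites (GAS) in promoters. The genes it induces include Irf1, guanylate-binding proteins, immunity-related GTPases, immunoproteasome subunits and antigen presentation genes. The type I interferons act through another receptor and induce genes with interferon-stimulated response elements (ISRE), and both interferons share many target genes. Comparing PBS-injected livers with and without Ifng asks how much of the resting level of these genes, and of other liver genes, differs when the animal cannot make IFN-γ.

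The promoters of 3 genes with some of the larger differences among the type I interferon-inducible genes are shown because each holds ISRE letters, and that of Irf1 because it holds a GAS match. The windows run from 250 bases before to 50 bases after a gene's start in RefSeq, build GRCm38.p6, and are written 5′ to 3′ along the gene; capitals mark ISRE matches (GAAANNGAAA on either strand), or the GAS match (TTCNNNGAA, which reads the same on both strands) in Irf1. Overlapping matches are merged.
Isg15, chr4:156200769-156201068, minus strand: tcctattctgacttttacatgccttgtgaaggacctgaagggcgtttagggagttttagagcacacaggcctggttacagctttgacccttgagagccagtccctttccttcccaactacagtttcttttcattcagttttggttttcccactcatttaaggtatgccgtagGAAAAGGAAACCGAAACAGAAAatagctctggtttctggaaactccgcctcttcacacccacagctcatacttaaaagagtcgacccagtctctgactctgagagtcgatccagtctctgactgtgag
Ifit1, chr19:34640639-34640938, plus strand: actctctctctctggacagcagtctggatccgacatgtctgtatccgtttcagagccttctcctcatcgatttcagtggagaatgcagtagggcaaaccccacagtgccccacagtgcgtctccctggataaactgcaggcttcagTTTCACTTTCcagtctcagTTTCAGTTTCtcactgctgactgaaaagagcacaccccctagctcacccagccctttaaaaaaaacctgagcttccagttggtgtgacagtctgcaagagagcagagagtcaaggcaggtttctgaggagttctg
Ifit3, chr19:34583279-34583578, plus strand: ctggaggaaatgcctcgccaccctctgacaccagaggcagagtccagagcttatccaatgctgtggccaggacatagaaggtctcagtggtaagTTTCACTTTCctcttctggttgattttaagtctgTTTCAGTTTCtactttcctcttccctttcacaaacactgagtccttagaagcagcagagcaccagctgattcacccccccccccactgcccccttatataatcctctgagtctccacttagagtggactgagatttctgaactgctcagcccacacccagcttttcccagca
Irf1, chr11:53769764-53770063, plus strand: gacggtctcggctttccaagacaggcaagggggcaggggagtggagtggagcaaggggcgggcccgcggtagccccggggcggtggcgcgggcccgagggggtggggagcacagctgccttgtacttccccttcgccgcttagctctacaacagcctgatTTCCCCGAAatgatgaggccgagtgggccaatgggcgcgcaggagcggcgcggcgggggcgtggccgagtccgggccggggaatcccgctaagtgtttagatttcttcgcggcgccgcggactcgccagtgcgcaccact
The Isg15 window holds 3 overlapping ISRE matches, and those of Ifit1 and Ifit3 hold 2 each. The windows of Gbp2, Psmb9, Tap1 and a second Irf1 start, not printed, hold 0 GAS matches, and that of Gbp2 holds 1 ISRE match. ISRE letters occur in 58.3% of the windows of tested type I interferon-inducible genes (7 of 12 genes with a window) and in 39.1% of those of IFN-γ-inducible genes (9 of 23), beside 3.81% for all tested genes with a window (212 of 5561) and 3.99% of all 27025 genes with a window. GAS letters occur in 33.3%, 34.8%, 8.07% and 9.55% of the same groups. A match is a description of letters and not a measured site. Usp18 has no entry in the table.

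No probe set differed between Ifng-null and control livers after PBS at the threshold of an adjusted p below 0.05. Of 9641 tested probe sets 0 were called (0%), and the smallest limma adjusted p was 0.873. At an unadjusted limma p below 0.05 there were 297 probe sets, fewer than the 482 that this threshold gives when nothing differs: 189 read higher in Ifng-null livers (1.96%) and 108 read lower (1.12%). The median size of the log2 change was 0.12 and the 95th percentile 0.38. Leaving out an array moved that count: it was 1225 without the first and 95 without the second Ifng-null array, and 736 without the first and 120 without the second control array, each with 0 calls. Over 6976 genes the median log2 change was -0.004, and 48.4% of genes had a positive change. The median half-width of the 95% confidence interval was 0.32 on the log2 scale, a factor of 1.25, and for 9230 probe sets (95.7%) the interval lay within 2-fold in both directions. Differences smaller than these half-widths were not detectable with 2 arrays a group. SEs and intervals pool the spread between replicates of all 6 groups. Cytokine-injected and Socs3-deleted replicates therefore also set them, and they are not the spread of the 4 PBS arrays alone. The intervals are not adjusted for the number of probe sets, and larger differences, such as a log2 change of 0.69 for Plin2, were also not called. An exact permutation test of 2 against 2 arrays cannot give a p below 0.333. The fit sets intensities under a floor of 33.0 to that floor, so changes of dim genes are understated; 60 tested probe sets (0.622%) were at the floor on all 4 arrays.

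Of the 4 pairs of arrays across genotypes, 3 were closer than the replicate pair of either genotype. The SD of the log2 difference over tested probe sets was 0.188 between the first Ifng-null and the first control array, the smallest of all 66 pairs of arrays in the series. The other 3 pairs across genotypes gave 0.291, 0.301 and 0.404. The 2 control arrays differed by 0.317 and the 2 Ifng-null arrays by 0.320, and the replicate pairs of all 6 groups ranged from 0.242 to 0.326.

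**Figure D1:**
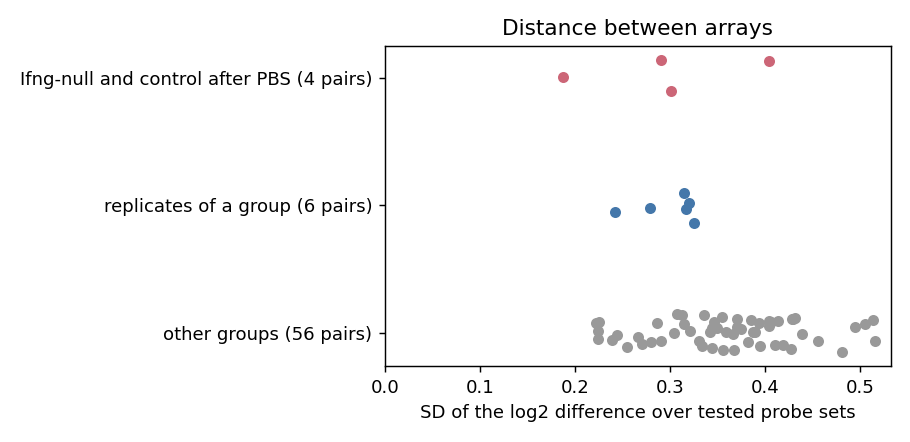
SD of the log2 difference over tested probe sets (x axis) for each of the 66 pairs of arrays, by kind of pair; each point is a pair and the vertical scatter within a row has no meaning. The smallest value, 0.188, is a pair of an Ifng-null and a control array after PBS.

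An array in each group stood apart in ways that touch the results below. The second control array was high for markers of pancreatic acinar cells and for haemoglobin genes. Prss2, a trypsin gene, was at 24.5 and 651 in control livers and at 26.3 and 24 in Ifng-null livers. The haemoglobin gene Hba-a1 read 316 and 6389 beside 325 and 317. Hba-a1 was also high on arrays of other groups, up to 4864 on the second Socs3-deleted PBS array. As a list, the red blood cell markers had a median log2 change of -0.04, and 0.03 without the second control array. The summed intensity of the pancreatic markers was 2118 and 10023 in control and 2171 and 2157 in Ifng-null livers. The second Ifng-null PBS array and the second Ifng-null IFN-γ array read low together for BioB, a bacterial transcript added as a hybridisation control. Its middle probe set read 42.6 and 41.0 on these arrays and 281 to 444 on the other 10. Pcx, a long liver transcript with control probe sets along its length, read 182 and 151 at its 5′ end on them and 507 to 919 elsewhere. The part of these arrays in each result was not tested; for the lists and genes described most closely, values without them follow. The hepatocyte markers were present on all 4 arrays, with albumin (Alb) at 13308 and 12587 in control and 12317 and 11564 in Ifng-null livers.

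**Figure D2:**
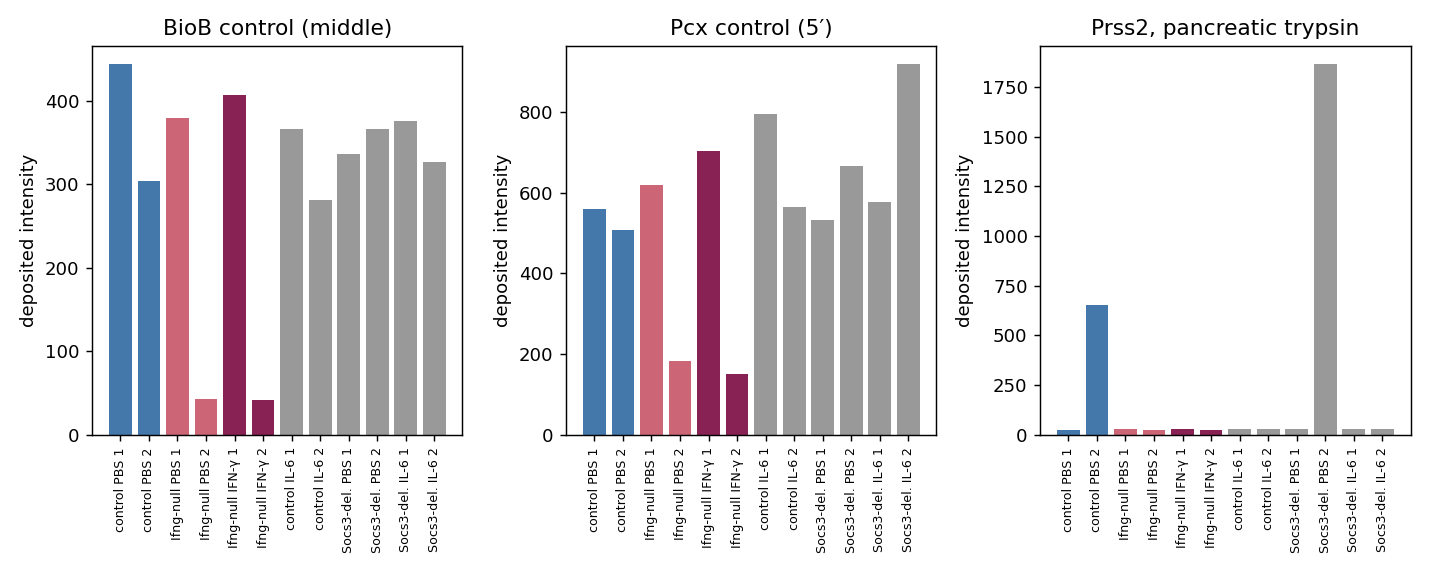
Deposited intensity (y axis, linear, from 0) of the BioB middle probe set, the Pcx 5′ probe set and Prss2 on each of the 12 arrays; colours mark control PBS, Ifng-null PBS and Ifng-null IFN-γ arrays, grey the other groups. BioB and Pcx 5′ are low on the second array of both Ifng-null groups, and Prss2 is high on the second control PBS array (651) and the second Socs3-deleted PBS array.

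The targeted gene does not check the labels. Ifng lies at chr10:118441046-118445894 (GRCm38.p6). Its probe set gave 7.24 and 6.96 in control livers and 7.59 and 7.05 in Ifng-null livers, below the floor on all 12 arrays. Of the 40 annotated genes nearest to Ifng, 20 of them on each side, 2 were on the array and 1 was tested: Cand1, which encodes a regulator of cullin ubiquitin ligases, read 79.3 and 82.4 in control and 86.9 and 81.1 in Ifng-null livers (log2 change 0.05). Socs3, which encodes a feedback inhibitor of cytokine signalling and is floxed in the controls, read 124 and 117 in control and 163 and 114 in Ifng-null livers on its brighter probe set (log2 change 0.18, 95% confidence interval -0.22 to 0.58). Its dimmer probe set read 78.8 and 88.2 beside 125 and 92.8 (log2 change 0.37, 95% confidence interval 0.004 to 0.74).

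No IFN-γ-inducible gene passed the test between Ifng-null and control livers after PBS. Of 30 tested IFN-γ-inducible genes 0 were called, 16 had a positive and 13 a negative change, and their median log2 change was 0.04, beside -0.004 over all genes. Gbp2, a guanylate-binding GTPase, read 43.8 and 50.3 in control and 49.6 and 49.1 in Ifng-null livers, and 2591 and 2298 in Ifng-null livers after IFN-γ. The 4 PBS arrays overlap, and both IFN-γ arrays lie far above them. Cxcl9, a chemokine that attracts T cells, read 37.1 and 35.1 in control, 36.6 and 36.1 in Ifng-null and 1687 and 1771 in IFN-γ-injected livers. Irf1, the transcription factor whose promoter is printed above, read 246 and 203 in control and 200 and 237 in Ifng-null livers (log2 change -0.04, 95% confidence interval -0.71 to 0.63). The intervals leave room for moderate differences: for Gbp2 the Ifng-null level lay between 0.434 and 2.55 times the control level, and for Iigp1, an immunity-related GTPase that read 2289 and 1782 beside 2311 and 2303, between 0.781 and 1.67 times. Without the second control array the log2 change of Irf1 was -0.18, that of Gbp2 0.17 and that of Iigp1 0.01.

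The members of the IFN-γ list with the largest differences were Psme1 and Irgm2. Psme1, an activator subunit of the proteasome, read 397 and 303 in control and 424 and 571 in Ifng-null livers (log2 change 0.51, 95% confidence interval 0.02 to 0.99; limma adjusted p = 0.873). Irgm2, an immunity-related GTPase, read 326 and 188 in control and 341 and 331 in Ifng-null livers (log2 change 0.44, limma adjusted p = 0.873). For both genes the Ifng-null arrays lie above both control arrays. The change of Irgm2 was 0.04 without the second control array. That of Psme1 was 0.31 without the second control array, 0.29 without the second Ifng-null array and 0.10 without both of these and the second IFN-γ array. The immunoproteasome subunit Psmb9 read 209 and 147 beside 186 and 202, and the peptide transporter subunit Tap1 read 149 and 127 beside 143 and 151; for both genes the groups overlap.

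Type I interferon-inducible genes leaned upward in Ifng-null livers against control livers after PBS, without any passing the test. Of 17 tested genes 0 were called, 16 had a positive change and the median log2 change was 0.45. The signs of Mx1, Ifit2 and Mx2 (-0.000, 0.04 and 0.01) carry little weight. These genes were at the floor on 4, 3 and 2 of the 4 PBS arrays. Between replicate arrays of the 6 groups, the list's median log2 intensity varied with an SD of 0.23. Both Ifng-null arrays lay above both control arrays for 12 of the 17, beside 12.6% of all probe sets (15.1% lay below). At an unadjusted limma p below 0.05 there were 3 of 17 higher, beside 1.96% of all probe sets. Usp18, a protease that removes ISG15 and restrains the type I receptor, read 93.0 and 85.1 in control and 149 and 153 in Ifng-null livers, 1.69-fold higher (log2 change 0.76 with SE 0.21; 95% confidence interval 0.28 to 1.24; limma adjusted p = 0.873). Isg15, a ubiquitin-like modifier, read 182 and 161 beside 268 and 344 (log2 change 0.83 with SE 0.61). Ifit1, which binds viral RNA ends, read 58.9 and 52.4 beside 88.2 and 108 (log2 change 0.81 with SE 0.83). That SE draws on replicates of all 6 groups, and Ifit1 read 530 and 67.8 in Socs3-deleted livers after PBS. In all 3 genes the groups do not overlap.

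Ifit3, a partner of Ifit1, read 61.9 and 38.9 in control and 87.5 and 94.4 in Ifng-null livers (log2 change 0.89 with SE 0.50). Irf9, a transcription factor of the type I interferon pathway, read 241 and 250 beside 291 and 339 (log2 change 0.36, 95% confidence interval 0.02 to 0.70; limma adjusted p = 0.873). Ifitm3, which blocks viral entry, read 2706 and 2082 beside 3026 and 4009 (log2 change 0.55, 95% confidence interval 0.01 to 1.10; limma adjusted p = 0.873). All 6 genes were higher on both Ifng-null arrays than on both control arrays. Without the second Ifng-null array the list's median was 0.33, without the second control array 0.36, and without both of these and the second IFN-γ array 0.21. With those 3 arrays left out the change was 0.16 for Ifitm3, 0.50 for Ifit3, 0.56 for Isg15 and 0.68 for Usp18. The median was positive in all 29 settings run, and the change of Usp18 ran from 0.67 to 0.82. The IFN-γ-injected Ifng-null livers read higher again for some of these genes, with Usp18 at 706 and 1103 and Isg15 at 2406 and 3122. Irf9, at 281 and 369, and Ifitm3, at 2942 and 4370, overlapped their values in Ifng-null livers after PBS. After PBS, Socs3-deleted livers read 539 and 332 for Isg15, 530 and 67.8 for Ifit1 and 155 and 52.6 for Ifit3. For these genes their first array lay above both Ifng-null PBS arrays. Usp18 and Irf9 read 132 and 102, and 240 and 266, below both Ifng-null PBS arrays. The list's summed intensity after PBS was 5161 and 4266 in control, 5964 and 7520 in Ifng-null and 6364 and 6883 in Socs3-deleted livers.

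**Figure D3:**
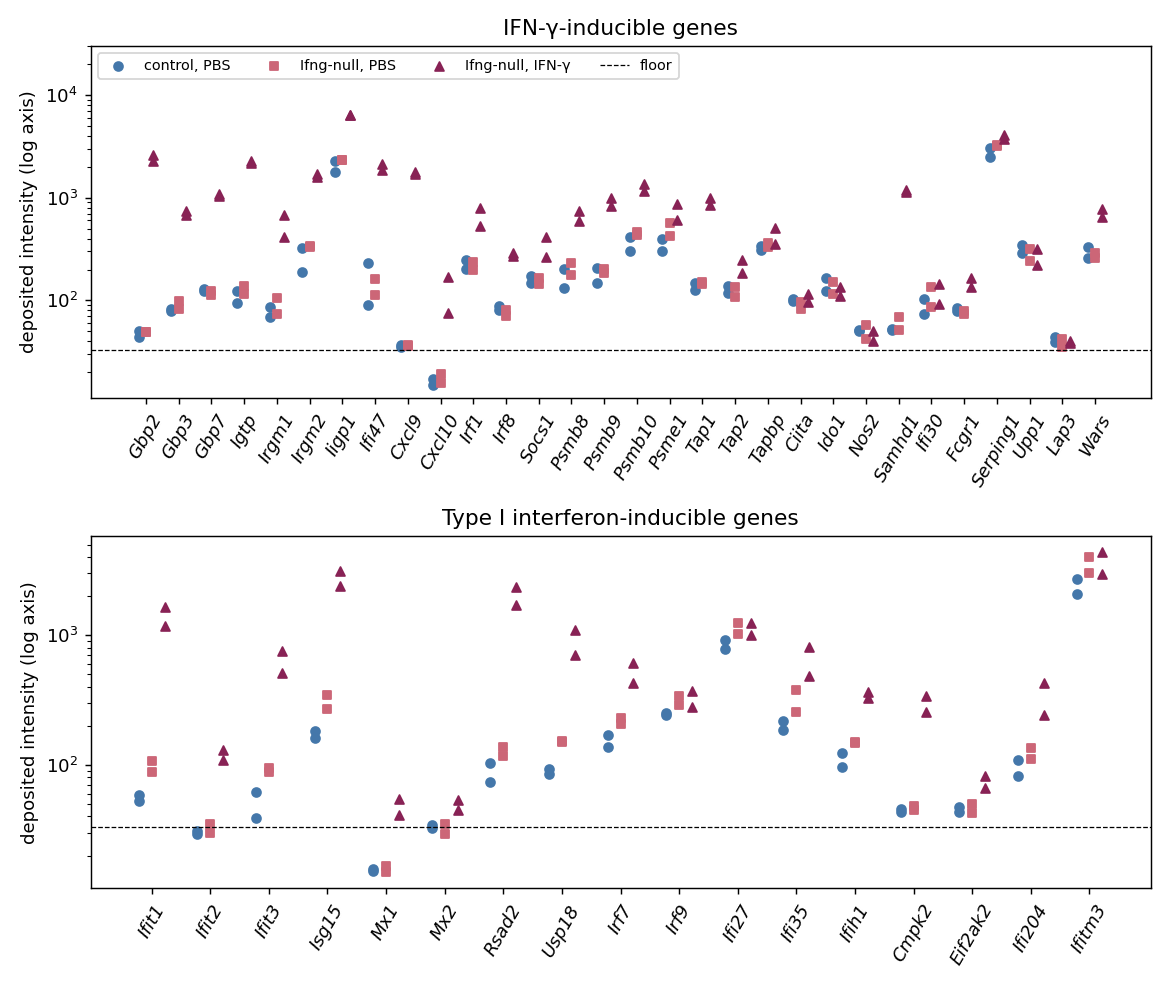
Deposited intensity (y axis, log scale) of the tested IFN-γ-inducible genes (top) and type I interferon-inducible genes (bottom) on the control PBS, Ifng-null PBS and Ifng-null IFN-γ arrays, 2 points a group; the dashed line is the floor of 33.0. The PBS groups mostly overlap in the top panel, while 12 of 17 genes in the bottom panel have both Ifng-null PBS arrays above both control arrays, beside 12.6% of all tested probe sets.

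No antigen presentation gene passed the test. Of 12 tested MHC class I genes 5 had a positive and 7 a negative change, with a median of -0.01, and all 12 intervals lay within 2-fold. H2-K1, a classical class I heavy chain, read 5303 and 4691 in control and 4839 and 5170 in Ifng-null livers. B2m, the shared light chain, read 4408 and 3966 beside 3992 and 4030. These probe sets can share sequence between related H2 genes, so their signals cannot be fully assigned to single genes.

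Of 11 tested MHC class II genes 2 had a positive and 9 a negative change, with a median of -0.16, and 0 were called. Between replicate arrays of the 6 groups, the list's median log2 intensity varied with an SD of 0.08. Both Ifng-null arrays lay below both control arrays for 5 of the 11, beside 15.1% of all probe sets. They lay above for 0, beside 12.6%. The median ran from -0.17 to -0.11 over the 29 settings. Cd74, the invariant chain, read 418 and 372 in control and 260 and 379 in Ifng-null livers (log2 change -0.33, 95% confidence interval -1.32 to 0.66). H2-Eb1, a class II beta chain, read 331 and 309 beside 288 and 278 (log2 change -0.18). H2-Eb1 was also lower on all 4 Ifng-null arrays (275 to 297) than on all 8 others (302 to 594), by a narrow gap. This held for 1 of the 11 class II genes, beside 0.456% of all probe sets. Class II genes mark antigen-presenting cells, and in whole liver fewer such cells and less RNA per cell cannot be told apart. The macrophage and Kupffer cell markers had a median log2 change of 0.07, which was -0.03 without the second control array and -0.13 without that array and the second array of both Ifng-null groups. The B and plasma cell markers had a median of -0.09, which was -0.05 and 0.001 in the same settings. The median of the class II genes was -0.13 in both.

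Interferon receptor and signalling genes gave 0 calls. Of 16 tested genes 9 had a positive and 7 a negative change, with a median of 0.07. The receptor chain gene Ifngr1 read 39.3 and 43.6 in control and 44.2 and 46.4 in Ifng-null livers (log2 change 0.13), and Ifngr2 read 84.0 and 84.9 beside 95.9 and 92.6 (log2 change 0.16). Both genes read slightly higher on both Ifng-null arrays.

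Chaperone genes leaned downward in Ifng-null livers. Of 25 tested heat shock and unfolded protein response genes 0 were called, 19 had a negative and 6 a positive change, and the median log2 change was -0.28. This is no larger than the spread between replicate arrays of the 6 groups, where the list's median log2 intensity had an SD of 0.30. At an unadjusted limma p below 0.05 there were 3 of 25 lower, beside 1.12% of all probe sets. Hspa8, the constitutive cytosolic HSP70, read 863 and 1015 in control and 537 and 711 in Ifng-null livers (log2 change -0.60 with SE 0.22; 95% confidence interval -1.09 to -0.12; limma adjusted p = 0.873). Hsp90b1, the HSP90 of the endoplasmic reticulum, read 1508 and 2413 beside 1144 and 1281 (log2 change -0.66 with SE 0.24; 95% confidence interval -1.19 to -0.13; limma adjusted p = 0.873). Dnaja1, an HSP40 co-chaperone, read 1100 and 1429 beside 748 and 1123 (log2 change -0.45; 95% confidence interval -0.90 to -0.004; limma adjusted p = 0.873). The first 2 of these do not overlap between the groups, and Dnaja1 overlaps.

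The chaperones with the largest differences rest more on the second control array. Creld2, which resides in the endoplasmic reticulum, read 181 and 608 in control and 132 and 198 in Ifng-null livers (log2 change -1.04 with SE 0.90, and -1.91 to -0.16 over the alternative settings). Hsph1, a cytosolic HSP110, read 301 and 538 beside 167 and 242 (95% confidence interval of the log2 change -2.11 to 0.10). Without the second control array, which carries the pancreatic enzyme signal, the list's median was -0.16; it was negative in all 29 settings. The change of Hsp90b1 was -0.32 without that array, that of Hsph1 -0.59 and that of Dnaja1 -0.26, while that of Hspa8 was -0.48. Of the 25 genes, 5 were lower on all 4 Ifng-null arrays than on all 8 others (Hspa8, Hspa5, Hsp90b1, Pdia3 and Dnajb11), beside 0.456% of all probe sets. For all 5 the second control array was the highest of the 4 PBS arrays.

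Among genes of lipid handling, Plin2 and Vnn1 read higher in Ifng-null livers. Of 23 tested genes of fatty acid oxidation and lipid uptake 0 were called, 18 had a positive and 5 a negative change, and the median log2 change was 0.16. This is smaller than the spread between replicate arrays of the 6 groups, where the list's median log2 intensity had an SD of 0.25. Plin2, which coats lipid droplets, read 2895 and 2170 in control and 4030 and 4035 in Ifng-null livers, 1.61-fold higher (log2 change 0.69 with SE 0.17; 95% confidence interval 0.31 to 1.06; limma adjusted p = 0.873). Vnn1, a pantetheinase, read 126 and 163 beside 231 and 264 (log2 change 0.78 with SE 0.31; 95% confidence interval 0.09 to 1.47; limma adjusted p = 0.873). Acads, the short-chain acyl-CoA dehydrogenase, read 427 and 337 beside 462 and 490 (log2 change 0.33, and 0.15 without the second control array). The groups do not overlap for these 3 genes. Of the 23 genes, 7 had both Ifng-null arrays above both control arrays, beside 12.6% of all probe sets. For 2 they lay below, beside 15.1%. Vnn1 also read 216 and 252 in control livers after IL-6. Over 28 alternative settings the log2 change of Plin2 ran from 0.48 to 0.89 and that of Vnn1 from 0.60 to 0.97. The list's median was 0.06 without the second control array and -0.02 without that array and the second array of both Ifng-null groups.

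Genes of nitrogen metabolism leaned the other way. Of 19 tested genes of the urea cycle and amino acid catabolism 5 had a positive and 14 a negative change, with a median of -0.12, and all 19 intervals lay within 2-fold. Between replicate arrays of the 6 groups, the list's median log2 intensity varied with an SD of 0.13. The median log2 change was -0.24 without the second control array, -0.16 without the second Ifng-null array and -0.22 without both of these and the second IFN-γ array. Slc25a15, the mitochondrial ornithine carrier, read 1851 and 1837 in control and 1395 and 1459 in Ifng-null livers (log2 change -0.37 with SE 0.09; 95% confidence interval -0.58 to -0.16; limma adjusted p = 0.873). Cps1, the first enzyme of the urea cycle, read 7332 and 6948 beside 6282 and 5651 (log2 change -0.26; 95% confidence interval -0.51 to -0.01; limma adjusted p = 0.873). Both genes were lower on both Ifng-null arrays, and the change of Slc25a15 ran from -0.51 to -0.34 over the alternative settings.

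Other liver functions gave 0 calls, and the medians of some lists leaned upward. Complement and coagulation genes had a median of 0.21 (21 of 29 positive), which was 0.09 without the second control array and 0.03 without the second Ifng-null array. Without both of these and the second IFN-γ array it was -0.07. The median of 0.21 is smaller than the spread between replicate arrays of the 6 groups, where the list's median log2 intensity had an SD of 0.25. Phase II conjugating enzymes had a median of 0.17, which was -0.03 without the second control array and 0.11 without the second Ifng-null array. Cytochrome P450 enzymes had a median of -0.01. Cyp7a1, the rate-limiting enzyme of bile acid synthesis, read 310 and 119 in control and 70.1 and 91.0 in Ifng-null livers (log2 change -1.26 with SE 0.60). Over the alternative settings the change ran from -2.14 to -0.57. The control arrays differ from each other more than the lower of them differs from the Ifng-null arrays.

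In the growth hormone and IGF axis, 8 of 16 genes had a positive change and the median was 0.01. Igfbp1, an IGF-binding protein that responds to fasting and stress, read 223 and 66.6 in control and 474 and 231 in Ifng-null livers (log2 change 1.44 with SE 0.75, and 0.57 to 2.31 over the alternative settings). Socs2, a feedback inhibitor of growth hormone signalling, read 235 and 146 beside 99.1 and 91.4 (log2 change -0.96 with SE 0.47). Onecut1, a hepatic transcription factor, read 168 and 157 beside 89.6 and 83.1 (log2 change -0.91; 95% confidence interval -1.72 to -0.10; limma adjusted p = 0.873).

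Among immediate-early genes, Egr1, a transcription factor induced within minutes of many stimuli, read 326 and 728 in control and 203 and 136 in Ifng-null livers (log2 change -1.55 with SE 0.38; 95% confidence interval -2.40 to -0.70; limma adjusted p = 0.873). Over the alternative settings the change ran from -2.13 to -0.68. Only the control PBS arrays lay above all other arrays: control livers after IL-6 read 146 and 126. Socs3-deleted livers read 178 and 148 after PBS and 184 and 318 after IL-6, and Ifng-null livers 197 and 253 after IFN-γ. In the 8 arrays outside the PBS comparison the log2 change of Egr1 was 0.36. Egr1 was among the probe sets with over 2-fold differences, of which there were 29 in all, 7 higher and 22 lower. The lower ones include Prss2, Ctrb1, Reg1, Reg2, Cel, Hba-a1 and Hbb-b2, which are high on the second control array. Mt1, a metallothionein, read 1197 and 176 beside 3654 and 358, so the replicates of each group differed more than the groups. Ctse, which encodes cathepsin E and was singled out after its values were seen, read 220 and 315 in control and 1319 and 416 in Ifng-null livers on 1 probe set and 156 and 308 beside 1417 and 429 on the other. The same gene read 1264 and 898, and 1308 and 896, in the IFN-γ-injected Ifng-null livers, and at most 450 and 489 on the 8 arrays of the other mice.

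**Figure D4:**
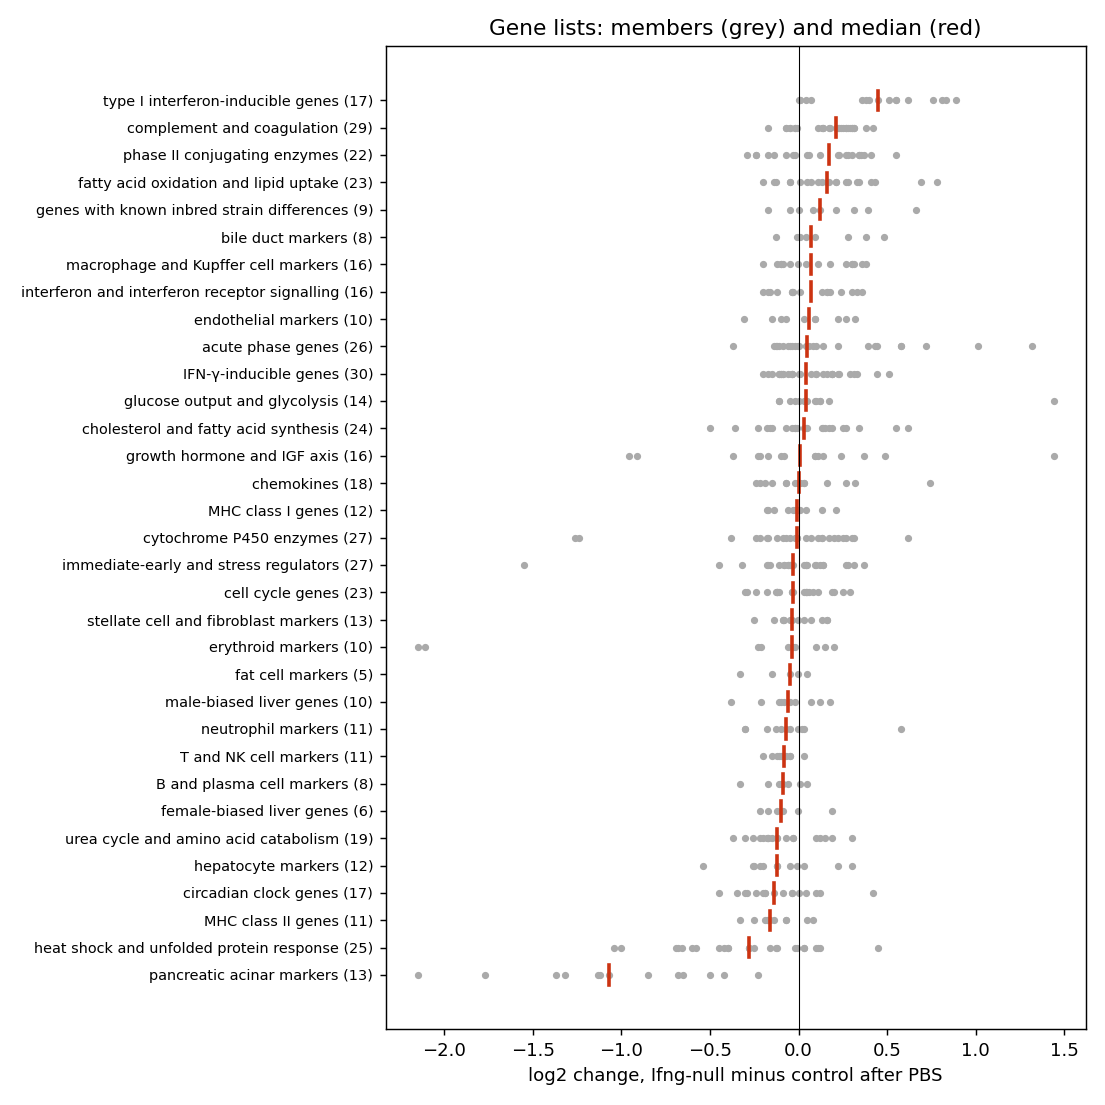
Log2 change between Ifng-null and control livers after PBS (x axis) for each tested member (grey points) of the gene lists with at least 5 tested members, whose number stands in brackets, and the list median (red bar). The type I interferon-inducible genes have the highest median (0.45), and the pancreatic acinar markers, which are high on the second control array, the lowest (-1.07).

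Markers of other cell types gave 0 calls. Pancreatic acinar markers had a median of -1.07, with 13 of 13 negative, and -0.06 without the second control array. Hepatocyte markers had a median of -0.12, T and NK cell markers -0.08, neutrophil markers -0.07, endothelial markers 0.06 and stellate cell and fibroblast markers -0.04, the last being 0.07 without the second control array. The sex-biased liver genes had medians of -0.06 for the male-biased and -0.10 for the female-biased list. Hnf4a, a hepatocyte transcription factor, read 877 and 868 in control and 934 and 383 in Ifng-null livers, and 384 on the second IFN-γ array, the other array with low BioB. Nnt, a mitochondrial transhydrogenase known to carry a deletion in C57BL/6J mice, read 152 and 179 in control and 381 and 180 in Ifng-null livers. It read 379 and 158 in the IFN-γ-injected Ifng-null livers, so both high values are on the first arrays and both low ones on the arrays with low BioB.

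The 8 arrays outside this comparison also set Ifng-null livers beside others, but the cytokines and the Socs3 deletion are part of the difference. They set IFN-γ-injected Ifng-null livers against the mean of IL-6-injected control and PBS- and IL-6-injected Socs3-deleted livers. They share no array with the PBS comparison, but the fit pools the spread of all 12 arrays, and the second Ifng-null array stands apart in both. In that comparison 50 of 9641 probe sets were called (0.519%), 38 higher and 12 lower; 15 of the 30 IFN-γ-inducible genes were among the higher ones. Without the second IFN-γ array 10 were called, without the second Socs3-deleted PBS array 30, without both arrays with pancreatic enzyme signal 16, without the second array of both Ifng-null groups 7, and without these and the second control PBS array 0. Of the 189 probe sets that read higher after PBS at an unadjusted p below 0.05, 6 were also called higher here, and of the 108 lower 0 were called lower.

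These 6 probe sets, chosen after their values were seen, are of Plin2, Gtf2b, Gpd2, Rbpms, Usp18 and 1810058I24Rik. Gtf2b, the general transcription factor TFIIB, read 266 and 225 in control and 396 and 361 in Ifng-null livers after PBS, and 483 and 703 after IFN-γ. Gpd2, the mitochondrial glycerol-3-phosphate dehydrogenase, read 98.0 and 87.7 beside 119 and 134, and 207 and 212 after IFN-γ. Rbpms, an RNA-binding protein, read 497 and 415 beside 675 and 620, and 985 and 1172 after IFN-γ.

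For Plin2, Gtf2b, Gpd2 and Rbpms all 4 Ifng-null arrays lie above all 8 others. In the 8 arrays outside the PBS comparison the log2 change was 0.90 for Plin2, 0.91 for Gtf2b, 1.20 for Gpd2 and 1.03 for Rbpms. The genes were chosen by a limma adjusted p below 0.05 in those arrays, so these changes are no separate support. The IFN-γ injection is also part of them. The second Rbpms probe set read 127 and 115 beside 145 and 146. Usp18 read up to 879 in Socs3-deleted livers after IL-6, above the Ifng-null livers after PBS. Over all tested probe sets, the 4 Ifng-null arrays lay above the 8 others for 42 (0.436%) and below them for 44 (0.456%).

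**Figure D5:**
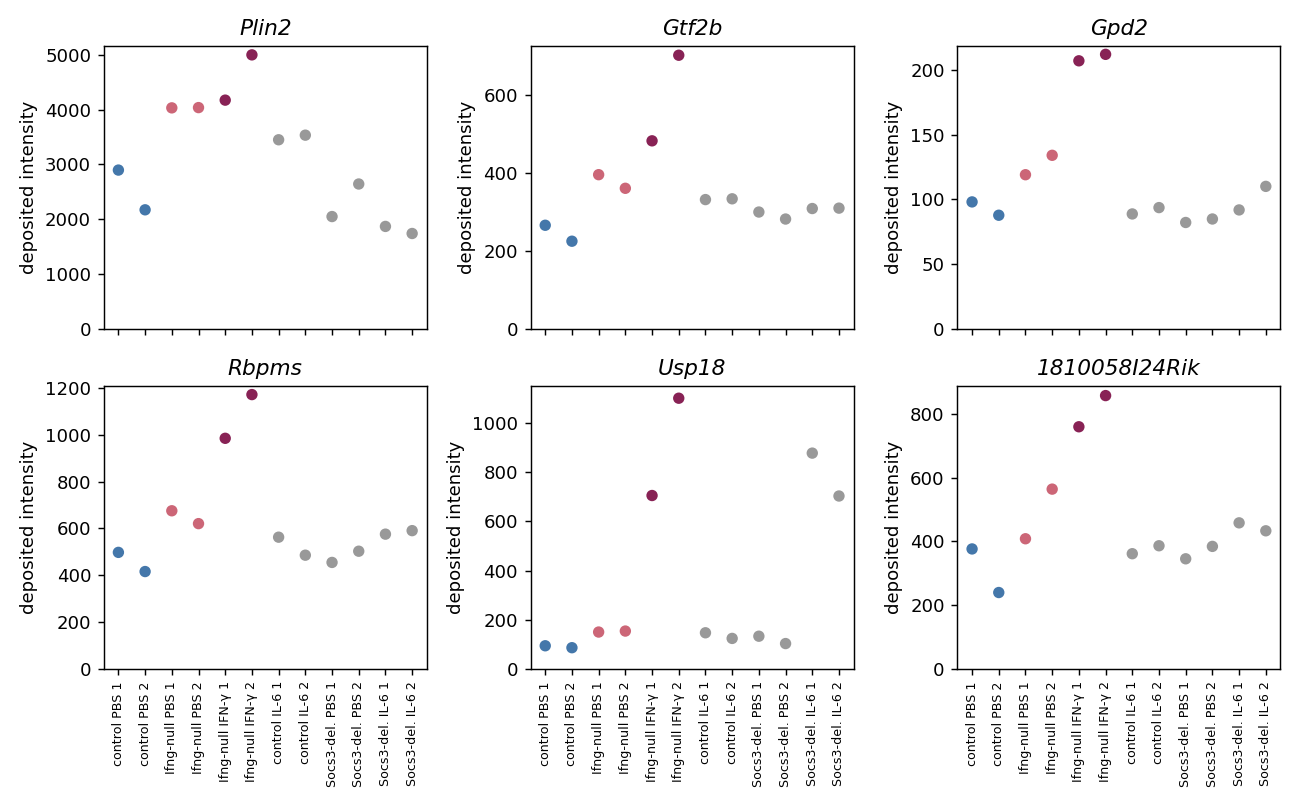
Deposited intensity (y axis, linear, from 0) of 6 genes on each of the 12 arrays; blue is control PBS, light red Ifng-null PBS, dark red Ifng-null IFN-γ and grey the other groups. For Plin2, Gtf2b, Gpd2 and Rbpms all 4 Ifng-null arrays lie above the other 8, and Usp18 is also high in Socs3-deleted livers after IL-6 (up to 879).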

How the data were processed

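Liver RNA was hybridised to Affymetrix mouse arrays. The deposited values are 1 linear intensity for each probe set on each array. The software and scaling behind the authors' intensity values are not stated in the labels. Groups came from the labels.

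The table holds 12488 probe sets, and 66 control probe sets were dropped. A floor of 33.0, the 25th percentile of all intensities, replaced lower values before the log2 step. Probe sets above the floor on at least 2 arrays were tested (9641). A model of 6 group means on 12 arrays was fitted with limma 3.58.1 in R 4.3.3 (lmFit, contrasts.fit, eBayes; 6 residual and 3.38 prior degrees of freedom), two-sided, with Benjamini-Hochberg adjustment over all tested probe sets and a threshold of 0.05. The number of arrays limits the precision. The code was tested on simulated data.

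The platform annotation gave 1 symbol for 10833 probe sets, several for 396 and none for 1193. The brightest probe set stood for a gene in the lists. The members and lists were chosen with earlier results of these data known. The rule for named genes took Ifng, Socs3, the 12 largest called rises and falls, up to 4 called members of a list or else the 2 of largest change, and called neighbours of Ifng; no probe set was called, so most other genes named were chosen after their values were seen. Alternatives were other floors, filters and normalizations, an intensity trend, robust fitting, array weights, replicate blocks and leaving out arrays.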

Additional observations from a re-analysis of the deposited data

How the results depend on the processing

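The comparison after PBS had 0 calls in all 28 alternative settings. The smallest limma adjusted p was 0.0635, without a filter, and the count at an unadjusted p below 0.05 ran from 95 to 1225. In the arrays outside it, 50 probe sets were called. The count was 8 without a filter, 19 with array weights, 105 with a replicate block within the Ifng-null arrays, 16 without both arrays with pancreatic enzyme signal, 7 without both Ifng-null arrays numbered 2, and 0 without those and WT_PBS 2; leaving out single arrays gave 10 to 51. A replicate block over all groups gave 0 calls after PBS, with 370 at an unadjusted p below 0.05, and 52 in the other arrays. The numbers were not taken to pair the samples of the compared groups, whose replicate differences correlated at -0.112. Between the Ifng-null groups the correlation was 0.665, and between other groups -0.254 to 0.308. The block within the Ifng-null arrays gave 929 at an unadjusted p below 0.05 after PBS, beside 297 without it, and 0 calls.

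The 3 settings that leave out 2 or 3 arrays and the block within the Ifng-null arrays were chosen after seeing the data. Where 1 array of a group is left, it is assumed to vary like the others. Of 71 named genes 28 changed sign in some setting; the cause was not tested. Without WT_PBS 2, IFN_PBS 2 and IFN_IFN 2, which sets 1 array against 1, the log2 changes that turned were H2-Q1 -0.09, Ifnar2 -0.03, Ccl9 -0.02, C1qb -0.11, Rtn4 -0.25, Tspan4 -0.17, Nsdhl -0.07, Agxt -0.07, Stmn1 -0.06, Hnf4a 0.09, Cd5l -0.19, Prf1 0.14, Cd37 0.01, Hba-a1 0.04, Col1a2 0.16, Dcn -0.04, Pecam1 0.15, Krt8 -0.06, Ctrb1 0.11 and Retn 0.22. Without both Ifng-null arrays numbered 2 they were Rtn4 -0.18, Stmn1 -0.03, Hnf4a 0.10, Prf1 0.03, Col1a2 0.03, Dcn -0.11, Pecam1 0.05 and Retn 0.09. Without both arrays with pancreatic enzyme signal they were Mt1 -0.07, Cxcl1 -0.15, Tspan4 -0.15, Pfkfb3 -0.05, Hba-a1 0.02 and Hbb-b2 0.15. With the floor at the 50th percentile Eif2s3y was 0.13. Leaving out single arrays gave ranges of -0.53 to 0.03 for Col1a2, -0.98 to 2.46 for Cxcl1, -2.65 to 0.17 for Cyp26a1, -0.11 to 0.44 for Dcn, -0.84 to 0.41 for Eif2s3y, -4.31 to 0.02 for Hba-a1, -4.37 to 0.15 for Hbb-b2, -1.19 to 0.10 for Hnf4a, -0.35 to 1.52 for Lcn2, -0.36 to 2.99 for Mt1, -1.02 to 3.04 for Mt2, -0.67 to 0.05 for Pecam1, -0.05 to 0.38 for Pfkfb3, -0.32 to 0.03 for Prf1, -0.39 to 0.09 for Retn, -0.18 to 0.56 for Rtn4, -0.03 to 0.61 for Stmn1 and -0.15 to 0.98 for Tspan4.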
